A study of Rattus norvegicus with 12 samples.

Results

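The proteins of the cytosolic ribosome are encoded by the Rpl genes (large subunit) and the Rps genes (small subunit), and 77 of them were followed here in pancreatic islets of rat offspring. Members were the protein-coding rows of the gene table whose symbol is Rpl or Rps with a number and an optional final a or x, together with Rplp0, Rplp1, Rplp2 and Rpsa. They made up 77 of 17407 rows, 46 for the large subunit and 31 for the small subunit, and all 77 had reads in all 12 libraries and passed the filter on low values. The cytosolic ribosome joins these proteins to ribosomal RNA (rRNA) and translates the cell's messenger RNA. Each protein is needed in about equal numbers, and the genes are therefore known for closely matched expression. Their messages begin with a run of pyrimidines, the terminal oligopyrimidine (TOP) tract, through which mTORC1 signalling controls their translation. Beta cells translate insulin in bulk and are rich in ribosomes.

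The study compared islets of offspring by their dams' state, gestational diabetes mellitus (GDM) or lean, and by weaning diet. The dams were Sprague-Dawley rats. Those named GDM ate a high-fat, high-sucrose chow (HFS, 45% fat) and the lean ones ate a low-fat chow (LF, 10% fat), with 6 dams on each. Dams ate their diet from 6 weeks before mating until the end of suckling, and their pups ate LF or HFS for 12 weeks after weaning. Islets were collected when the offspring were 15 weeks old. The 4 groups of 3 libraries are named by dam and weaning diet as GDM-HFS, GDM-LF, Lean-HFS and Lean-LF, and every dam had been mated with an LF-fed male. The labels give no sex, no litter and no dam for a library, so litter mates may be among them and p-values then measure only the spread between these libraries. The GDM is a dietary model, and effects of the HFS diet of the dam and of its diabetes cannot be told apart.

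The libraries held 11469290 to 27492858 reads over genes. Insulin, the defining product of beta cells, was abundant in all of them, and the 11 beta cell markers had a mean level on the log2 scale of 11.16 to 12.04 in libraries of GDM dams and of 11.67 to 12.23 in libraries of lean dams. In bulk tissue, fewer cells of a type and less RNA per cell cannot be told apart. Libraries differed in leftover rRNA, which took 1.84% to 8.55% of reads in libraries of GDM dams and 1.84% to 39.0% in those of lean dams. They also differed in markers of acinar cells, the enzyme-making cells around the islets, whose summed scaled value was 43941 to 765515 in libraries of GDM dams and 31791 to 263929 in those of lean dams. GDM-LF 2 was the highest of them all. The 26 tested acinar markers had a median log2 difference between dams of 1.03, close to that of the members given below, with 1 called higher. Markers of duct cells (13 tested, 1 higher, median 0.99), other islet hormones (5 tested, 1 higher, median 0.65) and erythrocyte markers (5 tested, 1 higher, median 1.70) also had positive medians. Their summed scaled values were 7075 to 22222, 43979 to 229056 and 242 to 5597 in libraries of GDM dams, against 5293 to 16316, 36274 to 79299 and 70.4 to 778 in those of lean dams, with none listed at 0 in every library. Stellate and fibroblast markers (12 tested, 0 called) had a median of 0.37. Medians were negative for markers of beta cells (11 tested, 1 lower, -0.26) and endothelial cells (12 tested, 2 lower, -0.42). They were also negative for markers of macrophages (11 tested, 0 called, -0.40) and lymphocytes (3 tested, 0 called, -0.15). The part of any marker list other than the acinar one in the results was not tested. Library titles also hold a letter of no stated meaning. It is K for GDM-HFS 3 and for the GDM-LF libraries 1 and 2, and G elsewhere, so every library of the lean dams carries G.

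The TOP tract is a feature that the choice of members did not use, and the sequences around the annotated transcript start show it for single genes. Promoters from RefSeq (build GRCr8) matched 58 of the 77 members by symbol, and 19 had no entry. Each window below holds 15 bases on each side of the annotated start, 5′ to 3′ on the gene's own strand, with the longest run of C and T that lies within 5 bases of the start in capitals. Shown are the largest difference between dams among genes with 1 annotated copy (Rps14), the longest tract (Rps23), examples described below with differences near 1 (Rplp1, Rpl13a), members that did not pass between dams (Rplp0, Rpl29, Rpl10), and 3 in which the run is short.
Rps14: cccttccgTCTCTCTCTTTCCggtggagga
Rps23: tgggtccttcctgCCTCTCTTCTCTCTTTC
Rplp1: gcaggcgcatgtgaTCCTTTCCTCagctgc
Rpl13a: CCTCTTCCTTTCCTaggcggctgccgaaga
Rplp0: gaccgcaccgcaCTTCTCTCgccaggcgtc
Rpl29: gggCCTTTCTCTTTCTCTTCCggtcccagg
Rpl10: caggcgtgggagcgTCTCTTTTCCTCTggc
Rpl41: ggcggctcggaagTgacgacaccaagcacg
Rps3: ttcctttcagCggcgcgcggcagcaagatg
Rps6: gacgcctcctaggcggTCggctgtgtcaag

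A run of at least 5 pyrimidines at the start was present in 43 of 58 members (74.1%), in 27.8% of 3659 other genes of similar transcript length and in 29.3% of all 33469 promoters. The longest run, of 21 bases, belonged to Rps23. The annotated start itself was a C, the base on which TOP messages begin, in 31 of 58 members (53.4%), in 31.7% of the other genes of similar length and in 24.1% of all promoters. Annotated starts can lie some bases from the start used in islets, and Rps3 is a case where a run of pyrimidines stands just upstream of the window's middle. Searched on both strands from 250 bases before to 50 after the start, the ETS core CCGGAA was in 53.4% of member promoters, 29.7% of those of other genes of similar length and 15.0% of all promoters. The YY1 core AAGATGG was in 15.5% of members, 7.87% of genes of similar length and 7.01% of all promoters. TATAAA was in 10.3% of members, 7.71% of genes of similar length and 14.2% of all promoters, and the GC box GGGCGG in 56.9%, 60.6% and 33.1% in the same order, so for both the direction depends on the comparison. A match is a description of the letters and not a binding site. The median log2 difference between dams was 0.98 in the 43 members with a tract and 1.10 in the 15 without, and Rpl29 and Rpl10, whose differences were near 0, have runs of 18 and 13 pyrimidines.

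Levels are given as scaled values, which are the deposited reads over exons scaled to library depth and then by a median-ratio factor. Per kilobase of transcript, where levels can be compared between genes, the median member stood at 3821 and 57 of 77 members lay within 2-fold of it. Rpl41, the smallest ribosomal protein, was highest with 25186 per kilobase, and Rps27 was also among the highest with 9376. At the low end stood Rps19 with 24.2, Rpl7a with 42.4, Rpl8 with 66.8 and Rps6 with 231 per kilobase. These 4 rows are among the 6 members for which the table gives 2 annotated copies. The 6 had a median of 149 per kilobase, against 3889 for the 71 members with 1 copy. The treatment of multi-mapping reads is not stated, and ribosomal proteins have many near-identical processed copies, so the values of these 6 rows are uncertain as levels of the genes they name. Rps19 rests on 2 to 143 reads per library and Rpl7a on 8 to 341.

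Ribosomal protein messages took a larger share of reads other than rRNA in these libraries of GDM dams' offspring than in those of lean dams' offspring. Member reads made up 4.52%, 4.32% and 5.38% of all reads other than rRNA in the GDM-HFS libraries and 4.61%, 5.75% and 3.66% in the GDM-LF libraries, against 2.86%, 3.05% and 3.12% in the Lean-HFS libraries and 2.16%, 2.10% and 3.45% in the Lean-LF libraries. The shares of the 6 libraries of GDM dams lay above those of the 6 libraries of lean dams without overlap. Averaged over weaning diets, the median member was 2.02-fold higher in offspring of GDM dams (a log2 difference of 1.01, range over members 0.16 to 2.03). All 31 small subunit members rose (median log2 difference 1.11), and 37 of 46 large subunit members rose (median 0.95). The other 9 large subunit members were above 0 and did not pass the threshold of an adjusted p under 0.05, and no member fell. Of all 12339 genes tested, 6.13% were called higher in the same contrast, with a median log2 difference of 0.03, as 756 higher and 670 lower calls. Without rescaling these calls were 429 and 245, and 63 members were called higher and none lower. No member passed with the rRNA level as a covariate or without the libraries of title letter K, where the medians were 0.57 and 0.74.

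**Figure D1:**
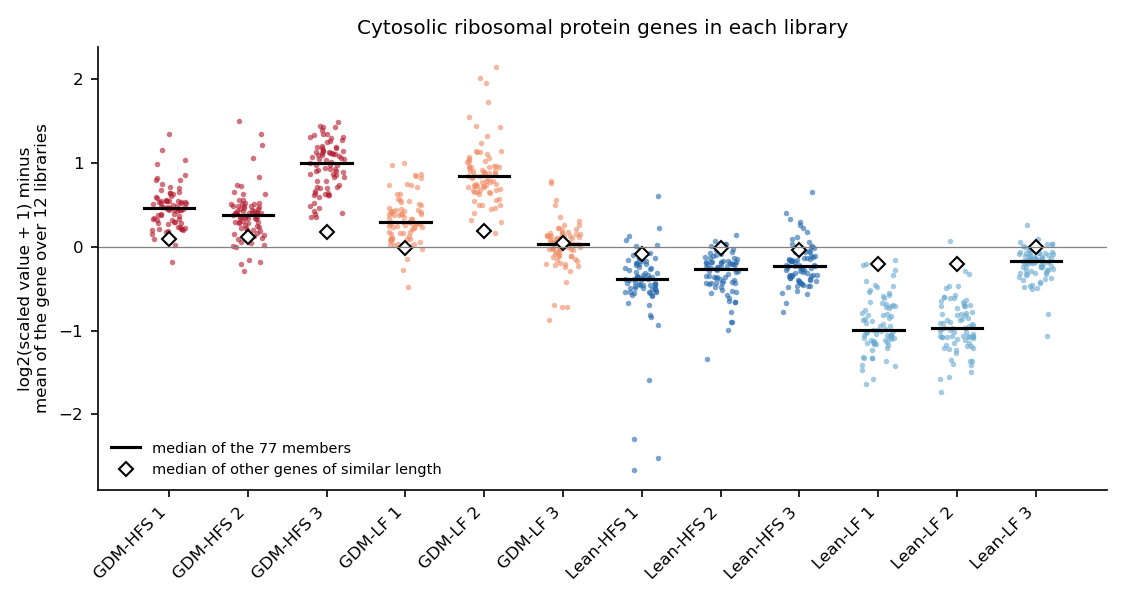
Log2(scaled value + 1) of each of the 77 members minus its own mean over the 12 libraries, by library (points). Black lines are medians of the members. Diamonds are medians of 5192 other protein-coding genes within the members' range of transcript lengths, most of them longer than most members. The members' medians were between 0.03 and 1.01 in the 6 libraries of GDM dams and between -0.99 and -0.17 in the 6 libraries of lean dams.

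Most members moved the same way from library to library, with a wide spread in some. In libraries of lean dams 0 to 12 of 77 members were above their own mean. In libraries of GDM dams 72 to 77 were, except in GDM-LF 3, where 45 were and members ran from -0.87 to 0.79. Relative to each gene's own mean over the 12 libraries, the median member stood at 0.46, 0.38 and 1.01 on the log2 scale in the GDM-HFS libraries and at 0.29, 0.85 and 0.03 in the GDM-LF libraries. It stood at -0.39, -0.27 and -0.23 in the Lean-HFS libraries and at -0.99, -0.97 and -0.17 in the Lean-LF libraries. Within a group the spread was widest in GDM-LF and Lean-LF. GDM-HFS 3 held the highest value of 47 members and GDM-LF 2 that of 28. Lean-LF 2 held the lowest value of 38 members and Lean-LF 1 that of 34. The groups came closest between GDM-LF 3, the lowest of the 6 GDM libraries for 61 members, and Lean-LF 3, the highest of the 6 lean libraries for 40. In 53 of 77 members every library of GDM dams lay above every library of lean dams, which held for 2.8% of all genes tested.

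**Figure D2:**
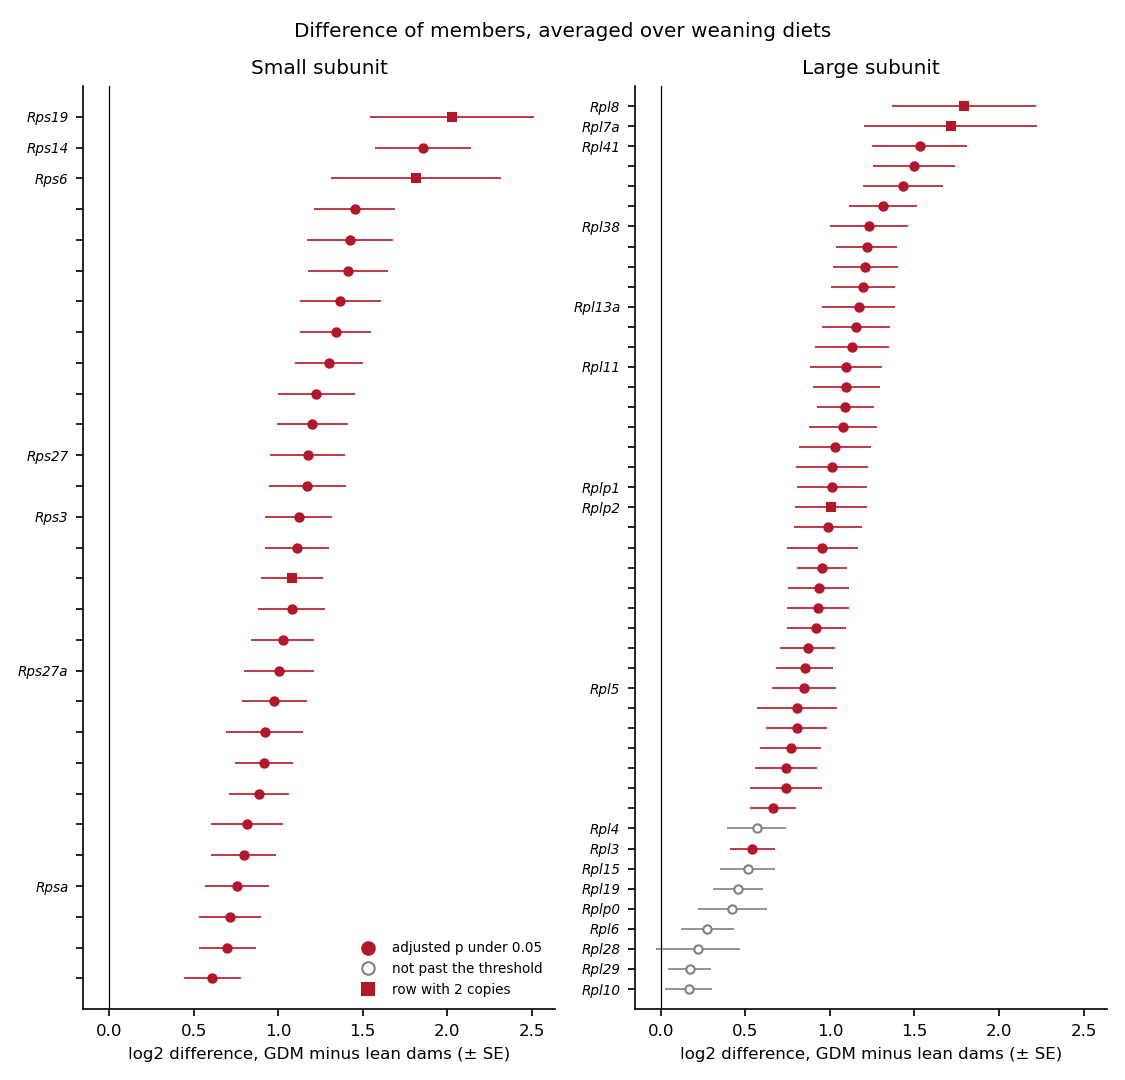
Log2 difference between offspring of GDM and lean dams for small subunit members (left) and large subunit members (right), averaged over weaning diets, with the standard error of the limma fit. Filled marks passed an adjusted p of 0.05 and squares are rows with 2 annotated copies. Names are given for the main members described in the text, and a few members are not drawn. Every point drawn lies above 0, and those short of the threshold are all large subunit members.

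Among small subunit proteins, the largest rise among rows with 1 annotated copy was that of Rps14, a protein of the platform whose loss of 1 allele underlies a human anaemia with a deletion on chromosome arm 5q. Its row lies at chr18:55276797-55281581 in build rn5. Rps14 had scaled values of 5942, 5801 and 8823 in the GDM-HFS libraries and 6565, 9603 and 3034 in the GDM-LF libraries, against 1716, 2250 and 1909 in Lean-HFS and 1054, 1233 and 2669 in Lean-LF. The 6 libraries of GDM dams did not overlap with those of lean dams, and the log2 difference was 1.86 ± 0.28 (SE, adjusted p = 0.0097).

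Rps3, which lines the channel where messenger RNA enters the small subunit, had a median of 6000 (4295 to 7990) in GDM dams' offspring, against 2954 (2091 to 3951) in lean dams' offspring, a log2 difference of 1.12 ± 0.20. Rps27a, made as a fusion of ubiquitin with the ribosomal protein, had a median of 3396 (2647 to 4871), against 1771 (1095 to 2477), a log2 difference of 1.00 ± 0.21. Neither gene showed overlap between dams. Rpsa, also known as the laminin receptor, had a median of 4817 (3556 to 7197), against 3083 (2309 to 3521), a smaller log2 difference of 0.76 ± 0.19. Adjusted p-values of the 3 genes were 0.012, 0.015 and 0.027 in that order. An exact two-sided permutation test over the 6 and 6 libraries gave p = 0.0022 for each of them, the smallest that its 924 splits allow.

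Rps19 and Rps6 had among the largest log2 differences and the least read support. Rps19, the gene most often mutated in human Diamond-Blackfan anaemia, had scaled values of 22.7, 20.6 and 22.5 in the GDM-HFS libraries and 14.7, 40.1 and 4.66 in the GDM-LF libraries, against 0.90, 3.98 and 10.5 in Lean-HFS and 4.26, 2.17 and 4.32 in Lean-LF. Its groups overlapped, since GDM-LF 3 lay below Lean-HFS 3, and its log2 difference was 2.03 ± 0.49 (SE, adjusted p = 0.023). Rps6, the classic substrate of the S6 kinases downstream of mTORC1, had a median of 259 (78.4 to 530) in offspring of GDM dams, against 79.2 (19.7 to 172) in offspring of lean dams, a log2 difference of 1.81 ± 0.50 (adjusted p = 0.037). Rpl8 and Rpl7a, large subunit rows with 2 copies, behaved alike, with log2 differences of 1.79 ± 0.43 (adjusted p = 0.022) and 1.71 ± 0.51 (adjusted p = 0.047).

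In these 4 rows GDM-LF 2 was the highest of all 12 libraries and Lean-HFS 3 the highest of the lean ones, and the same 2 libraries had the highest acinar marker sums of their dams. With the acinar level as a covariate the 4 differences were between 1.24 and 1.46 and none passed the threshold (adjusted p from 0.070 to 0.15). Over all genes that covariate lowered the count called higher from 756 to 232. The 4 rows also did not pass in limma with the length trend of other genes removed (adjusted p from 0.058 to 0.11). The same held without Lean-LF 2 (adjusted p from 0.069 to 0.12). With all 12 libraries and no covariate, 62 of the 71 members with 1 copy rose, with a median log2 difference of 0.99.

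Large subunit members rose by varied amounts. Rpl41 had scaled values of 16004, 12935 and 23456 in GDM-HFS and 15084, 21796 and 9190 in GDM-LF, against 5712, 6964 and 6277 in Lean-HFS and 3431, 3570 and 8258 in Lean-LF. The dams' libraries did not overlap, and Rpl41 rose by 1.53 ± 0.28 on the log2 scale (SE, adjusted p = 0.012). Rpl38, whose loss in mice alters the body plan of the skeleton, had a median of 2429 (1616 to 3372) in offspring of GDM dams, against 1165 (613 to 1541) in offspring of lean dams, a log2 difference of 1.23 ± 0.23. Rpl13a, which in human cells leaves the ribosome after interferon and silences inflammatory messages, had a median of 7238 (6128 to 11611), against 3763 (2520 to 4999), a log2 difference of 1.17 ± 0.21. Both had an adjusted p of 0.012 and no overlap between dams.

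Rpl5 and Rpl11 bind 5S rRNA and, when free of the ribosome, hold the p53 regulator Mdm2. Rpl11 had scaled values of 4104, 3927 and 6168 in GDM-HFS and 3968, 5725 and 2900 in GDM-LF, against 2106, 2496 and 2387 in Lean-HFS and 1426, 1405 and 2719 in Lean-LF. It rose by 1.10 ± 0.21 (SE, adjusted p = 0.013), with GDM-LF 3 and Lean-LF 3 the closest libraries. Rpl5 rose by 0.84 ± 0.19 (adjusted p = 0.019), with a median of 4745 (4109 to 7216) in offspring of GDM dams, against 3021 (2053 to 3529) in offspring of lean dams.

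The stalk of the large subunit, on which elongation factors dock, was uneven. Its small proteins Rplp1 and Rplp2 rose by 1.01 ± 0.21 each (adjusted p = 0.014 and 0.016), while the base of the stalk, Rplp0, did not pass the threshold (0.42 ± 0.20, adjusted p = 0.18). Rplp0 had scaled values of 7271, 5685 and 11355 in GDM-HFS and 6776, 9330 and 5357 in GDM-LF, against 6949, 5675 and 5879 in Lean-HFS and 5471, 4181 and 5163 in Lean-LF. Its libraries overlapped between dams on both weaning diets. Whether Rplp0 differed less than Rplp1 and Rplp2 was not tested.

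Rpl3, a protein of the catalytic centre, was a small but even rise: 4050, 4199 and 5338 in GDM-HFS and 3471, 4293 and 3695 in GDM-LF, against 2997, 3018 and 3083 in Lean-HFS and 2492, 2435 and 3116 in Lean-LF. Its dams did not overlap and the log2 difference was 0.54 ± 0.13 (SE, adjusted p = 0.024). Rpl4, with a similar difference of 0.57 ± 0.17, fell just short at an adjusted p of 0.050 although its libraries did not overlap either.

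Members that did not pass also included Rpl15 (log2 difference 0.51, adjusted p = 0.057), Rpl19 (0.46, 0.063), Rpl6 (0.27, 0.25), Rpl28 (0.22, 0.57), Rpl29 (0.17, 0.38) and Rpl10 (0.16, 0.44). These are structural proteins of the large subunit, and Rpl10 is among the last to join it. Rpl10 had scaled values of 2831, 2460 and 3576 in GDM-HFS and 2671, 3703 and 2682 in GDM-LF, against 2953, 2804 and 3148 in Lean-HFS and 2305, 2228 and 2495 in Lean-LF. GDM-HFS 2 lay below every Lean-HFS library, while the GDM-LF libraries lay above the Lean-LF ones, and the exact two-sided permutation p over dams was 0.23. The Rpl10 row is placed on chromosome 1 in the rn5 table, while RefSeq places Rpl10 on chromosome X in GRCr8. It was the only member whose chromosome differed between them, so its value is uncertain as that of the X-linked gene. Failing the threshold does not show that these genes were equal between dams.

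**Figure D3:**
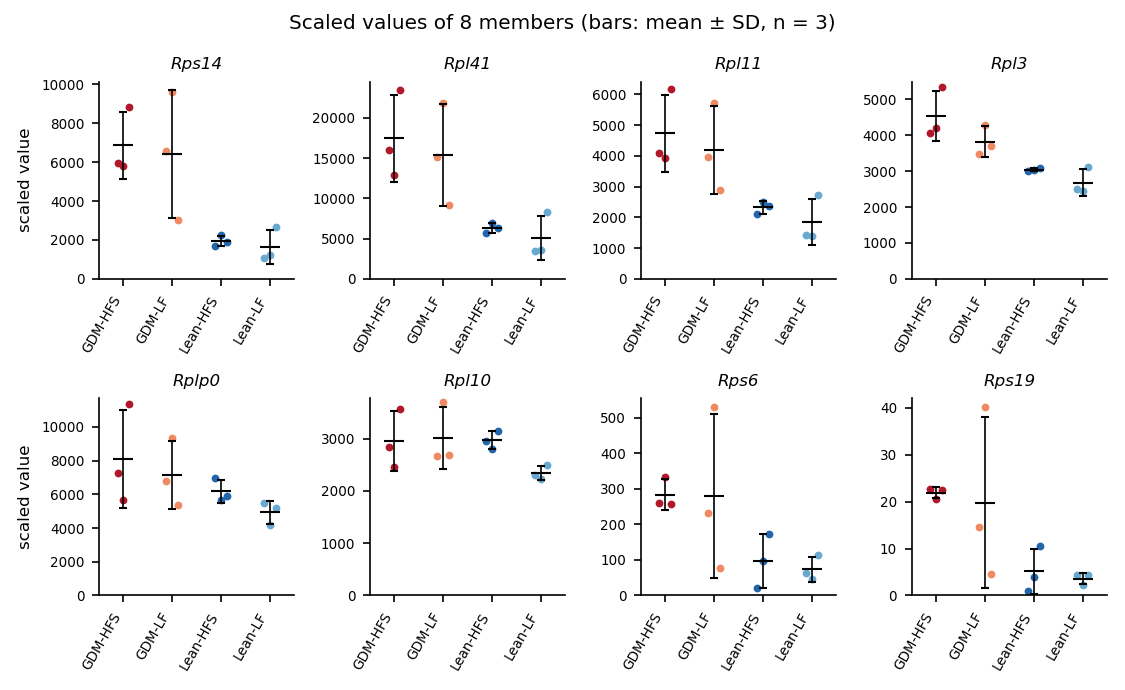
Scaled values of 8 members in the 4 groups (3 libraries each as points, with mean and SD as bars; vertical axes start at 0 and differ between panels). Rps14, Rpl41, Rpl11 and Rpl3 show no overlap between offspring of GDM and lean dams, Rplp0 and Rpl10 overlap, and Rps6 and Rps19 are rows of few reads with 2 annotated copies.

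Short transcripts in general were higher in offspring of GDM dams, and members are short, with a median length of 595 bases, against 2118 bases for all genes tested. Among 5192 other protein-coding genes within the members' range of lengths (298 to 1926 bases), 10.7% were called higher and the median log2 difference was 0.21. Of these, 3955 also had a mean scaled value between the lowest and the highest of the members (12.6 to 11056). Among the 3955, 13.2% were called higher and the median was 0.18. The comparison was chosen after seeing the data, and so wide a range does not match levels. Below 500 bases, 27 of 27 members were called higher with a median of 1.11, and 55 of 152 other genes were called higher with a median of 0.71. From 500 to under 750 bases, 24 of 28 members were called (median 0.96), against 119 of 414 other genes (median 0.44). From 750 to under 1000 bases, 13 of 14 members were called (median 1.04), against 110 of 608 other genes (median 0.35). At 1000 bases or more, 4 of 8 members were called (median 0.55), against 272 of 4018 other genes (median 0.15). The members' median was thus above that of other genes in each of the 4 length classes. Across the 77 members the difference fell with length (Spearman's rho = -0.43), as it did across 12143 other protein-coding genes (rho = -0.39). These are correlations across genes that share the same libraries.

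With the length trend of the other genes taken out of each library, 28 of 77 members were called higher and their median log2 difference was 0.48, while 1.99% of all genes were called higher. Of the members, 73 stayed above 0. The 28 included Rps14 (1.27), Rps16 (1.06), Rpl41 (0.90), Rpl11 (0.77), Rps3 (0.75) and Rpl5 (0.58). Rpl3 (0.35), Rpsa (0.47), Rpl38 (0.56) and Rplp1 (0.43) no longer passed. Among those below 0 were Rpl6 (-0.044), Rpl10 (-0.24) and Rpl29 (-0.31), none of which passed either way. The size of the length effect differed between libraries, and at the extremes it went with the members' level. Genes under 1000 bases stood above those over 4000 bases by a median of 0.71 in GDM-HFS 3 and 0.53 in GDM-LF 2. They stood below them in Lean-LF 1 and Lean-LF 2 (-0.70 in each). Not every library followed: the measure was -0.09 in GDM-LF 1 and -0.06 in Lean-LF 3, where the members' medians were 0.29 and -0.17. The part of library preparation or RNA quality in this was not tested.

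**Figure D4:**
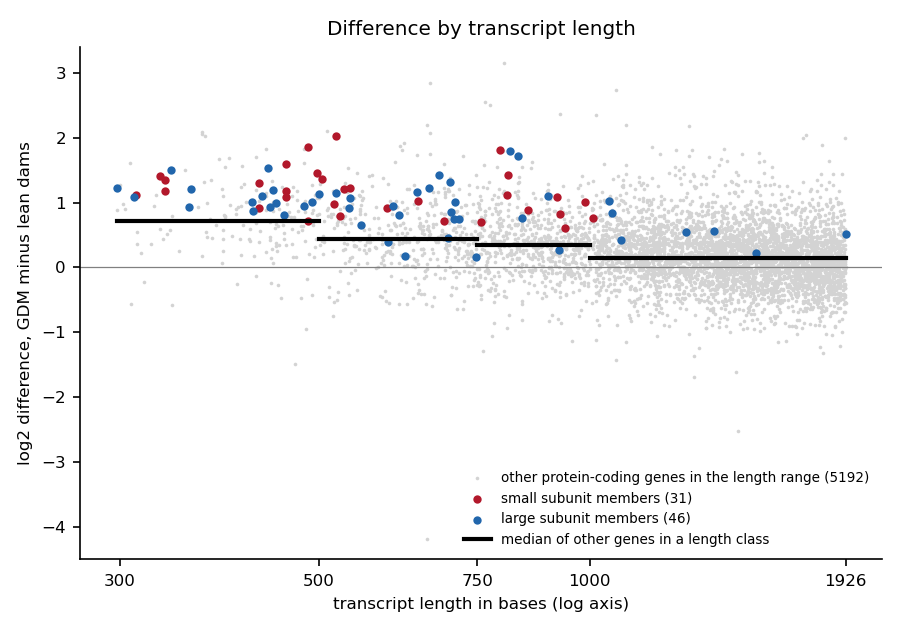
Log2 difference between offspring of GDM and lean dams against transcript length (log axis) for small subunit members (31), large subunit members (46) and 5192 other protein-coding genes in the same length range (grey). Black lines are medians of the other genes in 4 length classes, which run from 0.71 below 500 bases to 0.15 at 1000 bases or more, and most members lie above the line of their class.

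On each weaning diet alone the members pointed the same way with fewer calls. Among pups weaned to LF, GDM-LF against Lean-LF, the median log2 difference was 1.14 and 25 members rose, 14 of 31 for the small and 11 of 46 for the large subunit, against 0.851% of all genes. The 25 included Rps14 (1.93 ± 0.40), Rps20 (1.60), Rpl9 (1.76) and Rpl17 (1.21). All 3 GDM-LF libraries lay above all 3 Lean-LF libraries in 65 members and in 12.9% of all genes. The count of 25 moved with single libraries, as did the calls over all genes. Without GDM-LF 3, 65 members and 898 of 12339 genes were called higher, and without Lean-LF 3, 62 and 837. Without any other single library, 0 members and 0 genes were called higher. Among pups weaned to HFS, GDM-HFS against Lean-HFS, the median log2 difference was 0.91 and no member passed in limma (smallest adjusted p = 0.18), while 0.0081% of all genes did. DESeq2 called 44 members and 196 of 12336 genes higher, limma with library weights 9 and 44 of 12339, and edgeR 0 and 1 of 12336. At an unadjusted p under 0.05 there were 67 members in limma, 64 in edgeR and 68 in DESeq2. The count of all genes at that p is not given here, so these counts have no background beside them. In 70 members all 3 GDM-HFS libraries lay above all 3 Lean-HFS libraries, against 12.7% of all genes. In all, 74 of 77 members were above 0 on both diets, the exceptions being Rpl28 (-0.26 on HFS), Rpl29 (-0.03) and Rpl10 (-0.02). The sizes on the LF and HFS diets, which share no library, ran together across the 77 members (Spearman's rho = 0.86), and across 12143 other protein-coding genes with rho = 0.46.

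The weaning diet itself gave no call among members. In offspring of GDM dams, GDM-HFS against GDM-LF, the median log2 difference was 0.20 (range -0.30 for Rpl28 to 0.58 for Rpl7a) with a median SE of 0.28 and no member at an unadjusted p under 0.05 in limma, edgeR or DESeq2. In offspring of lean dams, Lean-HFS against Lean-LF, all 77 members were above 0 with a median of 0.37 (0.02 for Rps6 to 0.67 for Rpl28), and 5 had an unadjusted p under 0.05 in each of limma, edgeR and DESeq2. In limma they included Rpl23a, Rpl29, Rps26 and Rpl36, none of which was called. For independent tests, so few of 77 would be near the share that a threshold of 0.05 passes with no difference. The members share the same libraries and are not independent, and no count of all genes at that p is given beside these counts. The interaction, which asks whether the effect of the dam differs between diets, had a median of -0.17 with a median SE of 0.40 and a smallest adjusted p of 0.78. At an unadjusted p under 0.05 it had 0 members in limma, 0 in edgeR and 1 in DESeq2. In each of these 3 contrasts 0.0% of all genes were called higher. Without rescaling, the median of all genes was -0.35 for Lean-HFS against Lean-LF and 0.42 for the interaction, and the members' medians were 0.0012 and 0.27, with 39 and 68 members above 0. The direction of the interaction thus turned with the scaling. With the Rn45s level as a covariate the medians were 0.0095 for GDM-HFS against GDM-LF, 0.75 for Lean-HFS against Lean-LF and -0.72 for the interaction, with 40, 77 and 0 members above 0 and none called. The members' median deviation per library averaged -0.30 ± 0.080 in Lean-HFS and -0.71 ± 0.47 in Lean-LF (SD, n = 3 each), with Lean-LF 3 at -0.17 above all 3 Lean-HFS libraries.

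rRNA content and the title letter moved with the dam. Lean-HFS libraries had 39.0%, 31.3% and 24.7% rRNA and Lean-LF libraries 11.3%, 30.4% and 1.84%, while the GDM libraries had at most 8.55%. With the level of Rn45s, the rRNA precursor, as a covariate the median member difference was 0.57, all 77 members stayed above 0 and 0 of 77 passed, as did 0.0% of all genes. On LF alone the median was then 0.96 with 77 members above 0, and on HFS alone 0.19 with 67 above 0. Averaged over diets, 44 members had an unadjusted p under 0.05, with no count of all genes at that p beside it. Lean-LF 3, whose rRNA was as low as in any GDM library, had a median member deviation of -0.17. That was the highest of the 6 lean libraries and below the lowest library of GDM dams (0.03 in GDM-LF 3). The SD of this measure was 0.42 in GDM-LF and 0.47 in Lean-LF (n = 3 each). From 1 such library the parts of rRNA and dam cannot be told apart. Without the K libraries, which leaves 3 libraries of GDM dams and 6 of lean dams, all with the letter G, the median difference was 0.74 and all 77 members were above 0. No member passed, and 0.0% of all genes did. At an unadjusted p under 0.05 there were 67 members, again with no count of all genes beside it. What the letter stands for is not given, and no lean library carries K, so its part was not tested beyond this. With the acinar level as a covariate 48 members rose (median 0.86), and 1.88% of all genes. Single lean libraries mattered as well: 40 members rose without Lean-LF 1 and 36 without Lean-LF 2, against 1.24% and 1.09% of all genes.

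**Figure D5:**
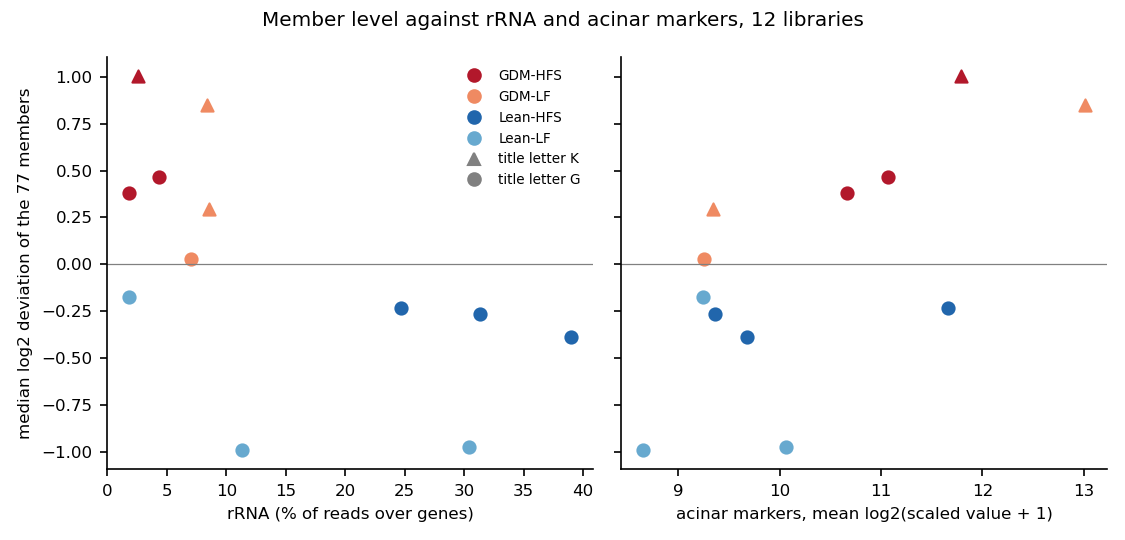
Median log2 deviation of the 77 members in each of 12 libraries against the rRNA share of reads (left, in percent) and the mean log2 level of acinar markers (right). Triangles mark libraries with the title letter K, which are 3 of the 6 libraries of GDM dams. Lean-LF 3, at 1.84% rRNA, lies at -0.17, between the other lean libraries and the GDM libraries.

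Other parts of the translation machinery were described from lists in the same contrast of GDM against lean dams, in which 6.13% of all genes were called higher and 5.43% lower. The 3 further ribosomal proteins with a row all rose, among them Fau (0.72 ± 0.18), made as a fusion with a ubiquitin-like protein, and Rack1 (0.52 ± 0.16), a signalling scaffold on the small subunit. Of 5 tested paralogs, 3 rose: Rpl22l1 (1.03), Rpl36al (0.84) and Rps27l (0.83). Of 71 mitochondrial ribosomal proteins, 25 rose and 1 fell (median 0.39), with Mrpl41 (0.80), Mrps23 (0.77) and Mrpl14 (0.76) at the smallest p. Only 1 of 9 elongation factors passed, Eef1b2, the exchange factor of eEF1A (1.00 ± 0.16), which averaged 2225 ± 599 in GDM-HFS and 1880 ± 353 in GDM-LF, against 1108 ± 189 in Lean-HFS and 936 ± 206 in Lean-LF (SD, n = 3 each). With the length trend removed, none of the 3 further proteins and none of the 5 paralogs was called (medians 0.23 and 0.39), and 5 mitochondrial ribosomal proteins were called higher and 1 lower (median 0.09).

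Of 52 initiation factors and their regulators, 6 rose and 2 fell (median 0.17). Eif3i, a subunit of eIF3, rose by 0.64, and the genes that fell were Eif4ebp2, which represses cap-dependent initiation (-0.91), and Eif2ak1, the haem-regulated kinase of eIF2 (-0.43). Of 22 other messages known to carry a TOP tract, 7 rose and none fell (median 0.39), among them Cox7c (1.03). Of 64 genes of ribosome biogenesis and rRNA processing, 8 rose and 1 fell (median 0.13). Taf1d (1.43), a factor of RNA polymerase I, Nip7 (0.97) and Polr1c (0.75) had the smallest p. Of 22 genes of mTORC1 signalling, 3 rose and 3 fell (median -0.08). Lamtor5, which anchors mTORC1 to lysosomes, rose by 0.65, and Sesn2, an inhibitor of mTORC1, fell by 0.95. Of 20 aminoacyl-tRNA synthetases none rose and 1 fell, Gars (-0.59), and their median was -0.13 at a median length of 2518 bases. With the length trend removed, 1 TOP message, 2 initiation factors and 3 biogenesis genes were called higher, and none of the mTORC1 genes was. Called lower in that fit were 3 mTORC1 genes, 2 initiation factors and 1 synthetase.

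For comparison with other short housekeeping genes, 43 of 77 nuclear genes of oxidative phosphorylation rose and 1 fell (median 0.54, median length 689 bases), led by Cox7a2 (1.17), Cox7c (1.03) and Ndufa12 (0.97). Of 17 proteasome core subunits 14 rose (median 0.72, median length 914 bases), led by Psmb1 (0.98), Psma5 (0.89) and Psma3 (0.74). With the length trend removed, 9 oxidative phosphorylation genes rose and 4 fell, with a median of 0.14. In the same fit 7 proteasome subunits rose and 0 fell, with a median of 0.41. The median of the cytosolic ribosomal proteins in that fit was 0.48. None of these lists was tested against another.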

How the data were processed

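Per the labels' protocols, islets were picked by hand, rRNA was removed with Ribo-Zero and directional libraries were made from total RNA. Per the submitters' processing notes, STAR 2.5.1b, HOMER 4.9 and DESeq2 were used. Per the file headers, HOMER summed reads over exons per gene on build rn5, on both strands, so overlapping and antisense genes cannot be told apart. The values the authors deposited are a depth-scaled signal. The header names FPKM, which the design had assumed, but values were whole multiples of 1 step per library and not divided by length (100% whole up to 1000 reads, tolerance 0.1 read). The planned log-scale test was kept.

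Libraries were divided by median-ratio factors over the 11337 rows above 0 in all (0.83 to 1.27). On log2(scaled value + 1), limma 3.58.1 in R 4.3.3 was run over the 12339 rows averaging 1 or more, with 1 mean per group and with a mean-variance trend and Benjamini-Hochberg adjustment over all rows (0.05). Fold changes are on that scale and understate changes of low rows. edgeR 4.0.16 and DESeq2 1.42.0 were run on recovered reads (over both diets edgeR called 671 rows higher and 816 lower). On simulated counts, only the dam contrast averaged over diets in limma, edgeR and DESeq2 and the removal of a length trend were checked. The permutation test, the other contrasts and the covariate, weighted and block fits were not. The length trend was a lowess curve per library over rows that are not members.

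Members and gene lists were chosen with earlier results of these data known. Genes named are those with a role noted, the 6 largest and 6 smallest differences, the 3 highest and 3 lowest levels per kilobase, all members not called, and up to 3 of smallest p per list. A few further members (such as Rps16, Rps20, Rps23, Rpl9 and Rpl17) were named as examples after their values were seen. Some genes that this rule names are not reported here.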

Additional observations from a re-analysis of the deposited data

How the results depend on the processing

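The count of members higher in offspring of GDM dams, 68, stayed between 57 and 72 under unscaled values, TMM factors, factors without the members, pseudocounts of 0.25 and 5, both filters, no trend, library weights, edgeR (67) and DESeq2 (72). Over all genes the count called higher was 756, and 413 to 1271 in these settings. The members' count was 28 with the length trend of other or of all genes removed (245 and 234 genes). It was 48 with the acinar covariate (232 genes). With the Rn45s covariate or without the K libraries it was 0 (0 genes in each). Leaving out the K libraries also cuts the libraries to 9. Leaving out 1 library gave 36 to 71 members and 135 to 1210 genes. For GDM-LF against Lean-LF the count of 25 (105 genes) became 12 unscaled (80 genes) and 31 with TMM factors (134 genes). It became 37 with a mean of at least 10 (172 genes), 64 with library weights (884 genes) and 66 in DESeq2 (925 genes). It became 0 with a pseudocount of 5, no filter, no trend, edgeR, either length trend, or the acinar or Rn45s covariate. It was also 0 without the K libraries, and 0 genes were called higher in each of these settings. With 1 library left out it was 0 to 65, with 0 to 898 genes. For GDM-HFS against Lean-HFS the count of 0 (1 gene) became 9 with library weights (44 genes) and 44 in DESeq2 (196 genes). With 1 library left out it was 0 to 16, with 16 (126 genes) reached without Lean-LF 3. The cause was not tested.

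Members exceeded other genes within their range of lengths, which are mostly longer than the members, by a median log2 of 0.80. That was 0.47 with the length trend of other genes removed, 0.41 with that of all genes and 0.48 with the Rn45s covariate. Unscaled, the median of all genes was -0.17 for GDM-LF against Lean-LF and 0.20 for GDM-HFS against Lean-HFS. With the length trend of other or of all genes removed, Rpl10 turned to -0.24 and -0.27, Rpl29 to -0.31 and -0.36 and Rpl6 to -0.044 and -0.058, and Rpl19 to -0.017 with that of all genes. None passed in limma, and the exact permutation p for Rpl10 at -0.24 was 0.032.

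Replicate numbers did not pair libraries: over 18 same-numbered pairs deviations correlated at -0.50 to 0.20, and 5 of 12 libraries correlated best with their own number. With the replicate number as a block, 64 members and 638 genes were called higher over both diets. For GDM-LF against Lean-LF it was 0 members and 0 genes. With 3 libraries a group, contrasts within a diet can miss differences of the size seen, and intervals for rows of few reads are wide.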
